A study of Danio rerio with 48 samples.

Results

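The 37 collagen genes detected in single zebrafish (Danio rerio) embryos are described here across noc2l genotype and developmental age. They are the entries of the deposited count table whose symbol has the form of a collagen chain gene (col, a type number, a, a chain number) and whose mean over the 48 embryos was at least 1 CPM (count per 1000000 counts of a library). Of the table's 31658 entries 53 had such a symbol, and the other 16 lay below the limit. The member just inside was col17a1a at 1.40 CPM and the gene just outside was col12a1b at 0.84 CPM. Members were grouped by collagen type into 6 fibrillar genes (types I and V), 10 notochord and cartilage genes (II, IX, X and XI), 8 basement membrane genes (IV, XV and XVIII), 5 fin fold and epidermis genes (VII, XII, XIV and XVII) and 8 others (VI, XVI, XIX and XXVIII).

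Collagens are secreted as triple helices of 3 chains, which may be copies of 1 gene product or products of different genes. Fibrillar collagens form the tensile fibres of skin, tendon and bone, type II with types IX and XI builds the sheath of the notochord and the matrix of cartilage, and type X marks hypertrophic cartilage and, in fish, also early bone-forming cells. Type IV is the network of basement membranes, types XV and XVIII lie at their surface, type VII anchors epidermis to dermis, type XVII is a transmembrane collagen of epidermal attachment plaques, and types XII and XIV coat fibrils. Type VI makes beaded filaments around muscle and connective tissue cells, from a heterotrimer of chains encoded by col6a1, col6a2 and a longer chain such as that of col6a3.

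Each library held RNA of 1 whole embryo of the RIKEN WT strain from 1 family carrying the agu79 allele of noc2l, a gene whose product is a nucleolar protein of ribosome biogenesis. Groups were noc2l -/- at 24 hours post fertilisation (hpf; n = 9), noc2l +/+ at 24 hpf (n = 6), noc2l -/- at 36 hpf (n = 9), noc2l +/+ at 36 hpf (n = 8), noc2l -/- at 48 hpf (n = 7) and noc2l +/+ at 48 hpf (n = 9). The labels name no treatment. Whole embryos mix all tissues, so fewer cells of a type and less RNA per cell cannot be told apart. The libraries read the 3′ ends of transcripts, and levels below are CPM with TMM scaling, not divided by transcript length; single levels are compared between embryos for the same gene. Sums, shares and ratios over several genes, given as descriptions, weight each gene by its 3′ tags, whose yield per molecule was not measured.

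Library totals ran from 797752 to 11016313 counts with a median of 5985646, and 3 libraries were shallow, with under 2000000 counts: mutant 8 at 24 hpf, wild type 4 of the same age and wild type 9 at 48 hpf. The noc2l transcript read from 2.08 to 16.3 CPM in mutants (median 4.35) against 6.54 to 31.9 CPM in wild types (median 19.1) at 24 hpf. It read 2.69 to 10.6 CPM in mutants (median 5.07) against 6.70 to 23.4 CPM in wild types (median 15.7) at 36 hpf, and 2.69 to 6.99 CPM in mutants (median 3.75) against 5.71 to 22.7 CPM in wild types (median 13.2) at 48 hpf. Genotypes overlapped at every age, and the gene was called lower in mutants at each (edgeR adjusted p 0.00242 or less). The highest mutant at 24 hpf was embryo 5 (16.3 CPM), and the next was embryo 3 (6.31 CPM). The labels do not describe the lesion, and a 3′ tag therefore checks them only in part.

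Together the 37 genes held 0.199% of counts in mutants and 0.191% in wild types at 24 hpf, 0.206% and 0.204% at 36 hpf, and 0.246% and 0.226% at 48 hpf. As summed CPM this was 2005 ± 130 in the 9 mutants and 1833 ± 224 in the 6 wild types at 24 hpf (mean ± SD), 2110 ± 326 in the 9 mutants and 2151 ± 220 in the 8 wild types at 36 hpf, and 2379 ± 146 in the 7 mutants and 2226 ± 101 in the 9 wild types at 48 hpf. Groups of both genotypes overlapped at each age. Fibrillar genes held the largest part of the collagen sum in every group, from 39.8% in mutants at 24 hpf to 52.9% in wild types at 36 hpf. Basement membrane genes held 17.5% in mutants and 16.6% in wild types at 24 hpf. At 48 hpf they held 11.98% in mutants and 11.1% in wild types. Notochord and cartilage genes held the smallest share at 36 hpf (18.9% in mutants, 18.6% in wild types) and the largest at 48 hpf (25.5% in mutants, 24.2% in wild types).

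**Figure D1:**
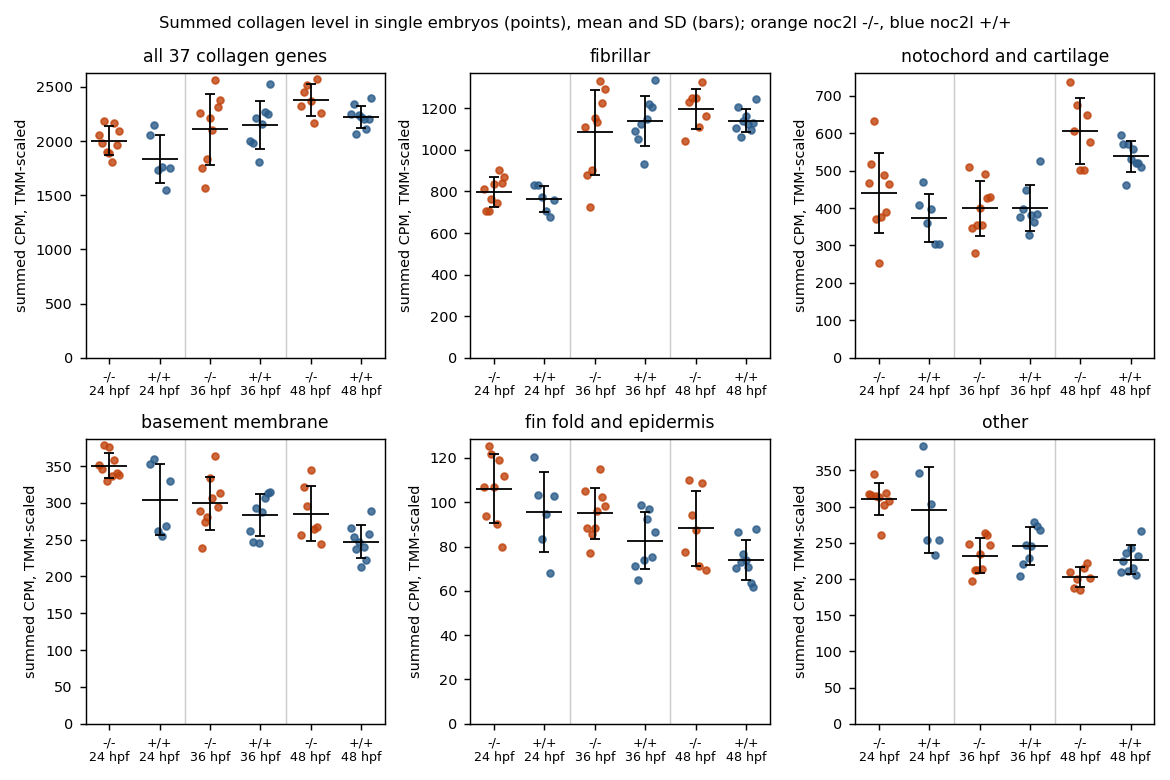
Summed level of all 37 collagen genes and of each of the 5 classes (vertical axes, summed CPM with TMM scaling, from 0) in single embryos of the 6 groups (horizontal axes, mutants left of wild types at each age). Points are embryos and bars are means with SD. The mean fibrillar sum is 797 in mutants and 763 in wild types at 24 hpf. At 48 hpf it is 1196 in mutants and 1141 in wild types, and both genotypes overlap in every panel at every age.

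Some classes were called with age in a single direction. From 24 to 48 hpf in wild types, fibrillar, notochord and cartilage, and type VI genes were called only as rises and basement membrane genes only as falls. Of the 37 members 13 rose, where 14.0% of the 16431 tested genes rose, and 6 fell, where 13.5% fell (edgeR quasi-likelihood test, Benjamini-Hochberg adjusted p under 0.05). The members' median log2 change was 0.39, beside 0.00 over all tested genes. In mutants over the same interval 17 members rose (13.9% of all tested genes) and 7 fell (13.8%), with a median of 0.44 beside -0.02 over all tested genes. These tests compare different embryos, but both came from the fit on all 48 libraries and share its estimates of spread. The 13 rises and 6 falls of wild types were all called in mutants too. The same overlap over all tested genes is not given here, so that of the members has no background beside it. The other 5 calls in mutants, which did not pass in wild types, were rises of col9a2, col12a1a, col19a1 and col28a1a and a fall of col4a4. No member was called between genotypes in this change by the test of the difference (below).

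**Figure D2:**
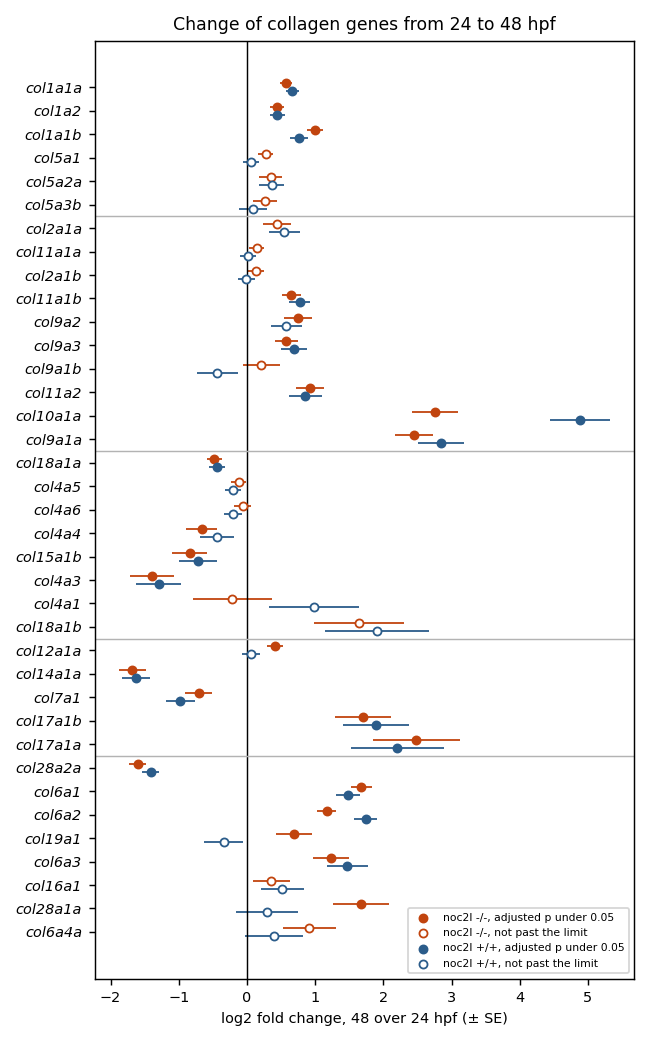
Log2 fold change from 24 to 48 hpf of each collagen gene (horizontal axis, bars are SE), mutants in orange above wild types in blue, with filled points past an adjusted p of 0.05. The 13 members that rose and the 6 that fell in wild types lie on the same side of 0 in mutants; col10a1a is the farthest to the right in both, at 2.76 in mutants and 4.88 in wild types.

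The type I genes rose between 24 and 36 hpf and were not called afterwards. In wild types col1a1a, which encodes an alpha 1 chain of type I, averaged 379 ± 52.1 CPM at 24 hpf (n = 6), 599 ± 68.7 CPM at 36 hpf (n = 8) and 603 ± 39.2 CPM at 48 hpf (n = 9). All wild types at 36 hpf (509 to 722 CPM) lay above all at 24 hpf (308 to 449 CPM). The log2 change was 0.66 (SE 0.10) from 24 to 36 hpf, with an edgeR adjusted p of 1.93e-06, and 0.01 (SE 0.09, adjusted p = 0.97) from 36 to 48 hpf. Its duplicate col1a1b rose by 0.73 (SE 0.13) and col1a2, encoding the alpha 2 chain, by 0.49 (SE 0.12) over the first interval (edgeR adjusted p 5.16e-05 and 0.00178). Over the second interval they moved by 0.03 and -0.05 (edgeR adjusted p 0.908 and 0.824). In wild types 6 members rose from 24 to 36 hpf (4.95% of all tested genes) and 2 fell (3.52%). With library totals alone as scaling, which put the median change of all genes at -0.12, the numbers were 6 and 4. The rises were the 3 type I genes, col11a1b, col6a1 and col6a2, and the falls were col14a1a and col28a2a.

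The ratio of col1a1a to col1a2 counts averaged 2.64 ± 0.69 in mutants and 2.50 ± 0.46 in wild types at 24 hpf, 2.70 ± 0.28 and 2.80 ± 0.34 at 36 hpf, and 2.82 ± 0.26 and 2.91 ± 0.31 at 48 hpf (SD over embryos). For col1a1b to col1a2 it was 0.74 ± 0.089 in mutants and 0.83 ± 0.13 in wild types at 24 hpf, with 48 hpf values of 1.08 ± 0.11 in mutants and 1.03 ± 0.090 in wild types. The ratios are given as a description and were chosen after values were seen. Type V, which joins type I fibrils and sets their diameter, was not called from 24 to 48 hpf. Its col5a1 averaged 71.2 ± 10.9 CPM at 24 hpf and 73.8 ± 8.40 CPM at 48 hpf in wild types, and col5a2a (log2 0.37, SE 0.18) and col5a3b (0.09, SE 0.20) did not pass either, with edgeR adjusted p of 0.136 and 0.803. The single call among them was a fall of col5a3b by 0.50 (SE 0.18) on the log2 scale from 36 to 48 hpf in wild types (edgeR adjusted p = 0.0419). In this interval 5 members fell with TMM scaling and 2 with library totals alone, and whether col5a3b was among the 2 is not given here.

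Notochord and cartilage genes moved mainly after 36 hpf. From 36 to 48 hpf 9 members rose in wild types (6.77% of all tested genes) and 5 fell (7.74%), and 5 of the 9 were of this class: col10a1a, col9a1a, col9a2, col9a3 and col11a2. With library totals alone 10 rose and 2 fell. Leaving out wild-type embryo 6 at 48 hpf took the number of members called in this interval to 8 of the 14. The number was 10 without wild-type embryo 1 or 7 at 36 hpf, or without embryo 2, 3 or 5 at 48 hpf. Type X had the largest change of all members. Its gene col10a1a read 0.38 to 4.03 CPM in wild types at 24 hpf (median 1.44), 1.30 to 5.46 CPM at 36 hpf (median 2.32) and 27.3 to 89.6 CPM at 48 hpf (median 49.9). The embryos at 48 hpf stood clear of both earlier ages. The level at 48 hpf was 19.6-fold that at 36 hpf in the fit (SE 0.34 on the log2 scale, edgeR adjusted p = 4.73e-14). In mutants the gene read 1.00 to 4.80 CPM at 24 hpf (median 2.06), 0.78 to 4.73 CPM at 36 hpf (median 2.56) and 6.26 to 29.4 CPM at 48 hpf (median 17.96), so that it was again above all younger embryos, and the log2 change from 24 to 48 hpf was 2.76 (SE 0.34, edgeR adjusted p = 3.57e-09).

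Type IX, a short collagen that decorates type II fibrils, is assembled from products of col9a1, col9a2 and col9a3 genes. In wild types col9a1a averaged 4.42 ± 2.53 CPM at 24 hpf, 8.34 ± 2.33 CPM at 36 hpf and 29.7 ± 9.10 CPM at 48 hpf, a log2 change of 2.84 (SE 0.34) from 24 to 48 hpf with an edgeR adjusted p of 8.81e-10. Its duplicate col9a1b had no such rise: 29.03 ± 12.5 CPM at 24 hpf, 22.2 ± 6.51 CPM at 36 hpf and 22.5 ± 6.86 CPM at 48 hpf, with a log2 change of -0.43 (SE 0.30, edgeR adjusted p = 0.311). From 24 to 48 hpf col9a3 rose by 0.69 (SE 0.19, edgeR adjusted p = 0.0037) in wild types, while the change of col9a2, 0.58 (SE 0.23), missed the threshold (adjusted p = 0.0504).

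Type II genes, which encode the main collagen of notochord sheath and cartilage, were not called with age. In wild types col2a1a averaged 94.8 ± 24.7 CPM at 24 hpf, 94.5 ± 28.0 CPM at 36 hpf and 138 ± 21.6 CPM at 48 hpf (log2 change from 24 to 48 hpf 0.55, SE 0.23, edgeR adjusted p = 0.0681). Its duplicate col2a1b stood at 72.3 ± 14.9, 79.7 ± 10.5 and 71.7 ± 6.51 CPM (log2 -0.01, SE 0.13). From 24 to 48 hpf in wild types 14.0% of all tested genes rose. Type XI, which nucleates type II fibrils, had 2 genes that rose in that interval and 1 that was not called. Its col11a1a moved by 0.01 (SE 0.12, edgeR adjusted p = 0.949), while col11a1b rose by 0.77 (SE 0.16, adjusted p = 6.83e-05) and col11a2 by 0.86 (SE 0.24, adjusted p = 0.00357). By 36 hpf col11a1b had risen by 0.75 (SE 0.16, edgeR adjusted p = 0.000531), while col11a2 had moved by 0.27 (SE 0.24, adjusted p = 0.599).

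Basement membrane genes were called only as falls. From 24 to 48 hpf in wild types 3 of the 8 fell (13.5% of all tested genes) and none rose (14.0%). They were col4a3, encoding a type IV chain, by 1.30 (SE 0.33, edgeR adjusted p = 0.00167), col15a1b by 0.72 (SE 0.28, adjusted p = 0.0481) and col18a1a, encoding the precursor of endostatin, by 0.44 (SE 0.12, adjusted p = 0.00265), all on the log2 scale. In wild types col18a1a read 78.2 to 143 CPM at 24 hpf (median 115), 73.9 to 108 CPM at 36 hpf (median 91.2) and 70.2 to 112 CPM at 48 hpf (median 79.6), so single embryos of different ages overlapped. The type IV genes col4a5 and col4a6, which encode chains that assemble with each other, moved by -0.20 (SE 0.11, edgeR adjusted p = 0.18) and -0.21 (SE 0.13, adjusted p = 0.25). The count ratio of col4a5 to col4a6 averaged between 1.43 and 1.63 in the 6 groups. Changes of the sparse members col4a1 and col18a1b, with median counts of 9 and 6 per library, had SE of 0.66 and 0.77 and did not pass.

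Fin fold and epidermis genes divided by type. The gene col14a1a, encoding a collagen of the fibril surface, fell in both intervals in wild types. It averaged 33.1 ± 8.44 CPM at 24 hpf, 17.8 ± 6.07 CPM at 36 hpf and 10.6 ± 1.76 CPM at 48 hpf, a log2 change of -1.63 (SE 0.20, edgeR adjusted p = 9.95e-10). All wild types at 48 hpf (8.00 to 13.03 CPM) lay below all at 24 hpf (21.2 to 45.7 CPM). The anchoring fibril gene col7a1 fell by 0.98 (SE 0.22, edgeR adjusted p = 0.000253), with 16.1 ± 5.79 CPM at 24 hpf, 12.8 ± 3.15 CPM at 36 hpf and 8.60 ± 2.50 CPM at 48 hpf. In contrast both type XVII genes rose from low levels. In wild types col17a1a averaged 0.63 ± 0.52 CPM at 24 hpf and 3.30 ± 1.82 CPM at 48 hpf (log2 2.21, SE 0.68, edgeR adjusted p = 0.00925), and col17a1b averaged 1.33 ± 1.14 CPM at 24 hpf and 5.46 ± 1.40 CPM at 48 hpf (log2 1.89, SE 0.48, adjusted p = 0.00162). Median counts per library were 6 for col17a1a and 18.5 for col17a1b. Type XII was not called from 24 to 48 hpf in wild types, where col12a1a averaged 44.3 ± 6.59 CPM at 24 hpf, 47.3 ± 8.58 CPM at 36 hpf and 45.9 ± 6.58 CPM at 48 hpf.

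Of the 4 type VI genes 3 rose from 24 to 48 hpf in wild types (14.0% of all tested genes). In wild types col6a1 averaged 19.8 ± 5.28 CPM at 24 hpf, 40.2 ± 7.58 CPM at 36 hpf and 54.6 ± 8.80 CPM at 48 hpf, and the log2 change from 24 to 48 hpf was 1.47 (SE 0.18, edgeR adjusted p = 2.71e-10). Over the same interval col6a2 rose by 1.74 (SE 0.17, adjusted p = 9.97e-14) and col6a3 by 1.47 (SE 0.30, adjusted p = 7.94e-05). The fourth member of the type, col6a4a, did not pass (0.39, SE 0.43, adjusted p = 0.549). Type XXVIII is a von Willebrand factor domain collagen known from nervous tissue in mouse. Of its 2 members col28a2a fell: it averaged 238 ± 67.7 CPM at 24 hpf, 151 ± 26.8 CPM at 36 hpf and 89.7 ± 18.5 CPM at 48 hpf, a log2 change of -1.41 (SE 0.12, edgeR adjusted p = 1.8e-15). All wild types at 48 hpf (67.5 to 131 CPM) lay below all at 24 hpf (166 to 334 CPM). The other, col28a1a, averaged 2.50 CPM at 24 hpf, 2.78 CPM at 36 hpf and 2.99 CPM at 48 hpf in wild types and was not called there.

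**Figure D3:**
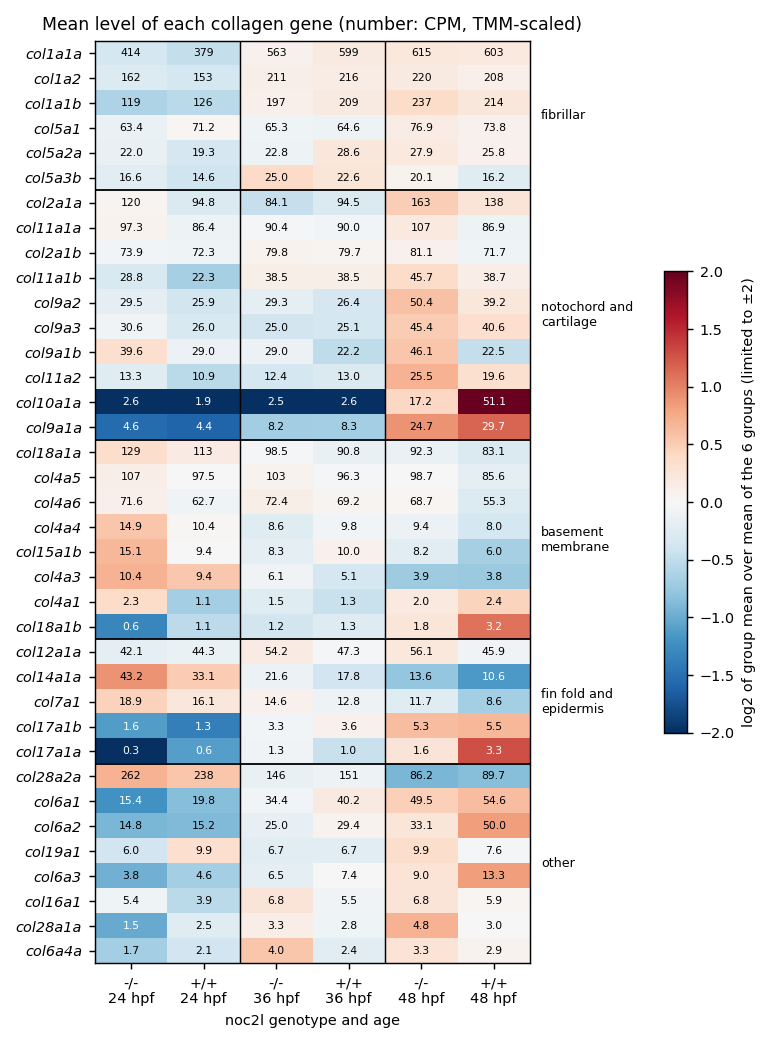
Mean level of each of the 37 collagen genes (rows, by class) in the 6 groups (columns, mutants left of wild types at each age); the number is the mean CPM with TMM scaling and the colour is the log2 ratio of the group mean to the mean of the 6 group means, limited to 2 either way. The columns of 1 age are mostly alike in colour, and the exceptions at 48 hpf include col10a1a (17.2 CPM in mutants, 51.1 in wild types).

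The genotype comparisons asked how collagen transcripts differed in embryos homozygous for the noc2l allele. At 24 hpf no member was called by edgeR, where 0.122% of all tested genes were, and at 36 hpf none was, where 0.706% were. At an unadjusted p under 0.05 there were 4 of 37 members at 24 hpf (7.97% of all tested genes) and 2 at 36 hpf (7.59%), and DESeq2 and limma voom also called 0 at both ages. Over the whole table DESeq2 called 46 genes at 24 hpf and 160 at 36 hpf, and limma voom called 8 and 155. At 24 hpf 26 members had a positive log2 difference and 11 a negative one, with a median of 0.16 beside 0.02 over all tested genes. At 36 hpf the numbers were 19 and 18, with a median of 0.00 beside -0.01. The 10 notochord and cartilage genes all had positive differences at 24 hpf, from 0.04 to 0.54, none past the test. They were read in the same embryos, so their signs are not separate observations, and the class was singled out after values were seen. Their sum ran from 253 to 632 CPM in mutants and from 303 to 469 CPM in wild types at that age. The lowest mutant sum was that of embryo 5, which had the most noc2l of the mutants. For the well counted col1a1a the log2 difference was 0.13 (SE 0.10) at 24 hpf, -0.09 (SE 0.09) at 36 hpf and 0.03 (SE 0.09) at 48 hpf, whereas for the sparse col17a1a it was -1.29 (SE 0.74) at 24 hpf.

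At 48 hpf 3 members were called. The gene col9a1b was higher in mutants (1 member, where 1.49% of all tested genes were called higher), and col10a1a and col6a2 were lower (2 members, where 0.712% were called lower). DESeq2 and limma voom called the same 3, out of 471 and 505 genes that they called over the whole table. The median over members was 0.17 beside -0.02 over all tested genes, with 27 positive and 10 negative differences, and 8 members had an unadjusted p under 0.05, where 11.3% of all tested genes had. No member separated the genotypes completely at any age, where 0.0548% of all tested genes did at 24 hpf, 0.268% at 36 hpf and 0.937% at 48 hpf. All 6 fibrillar genes differed by 0.03 to 0.33 with none past the test, the 8 basement membrane genes by -0.79 to 0.47 with none past the test, and the 5 fin fold and epidermis genes by -1.01 to 0.44 with none past the test.

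**Figure D4:**
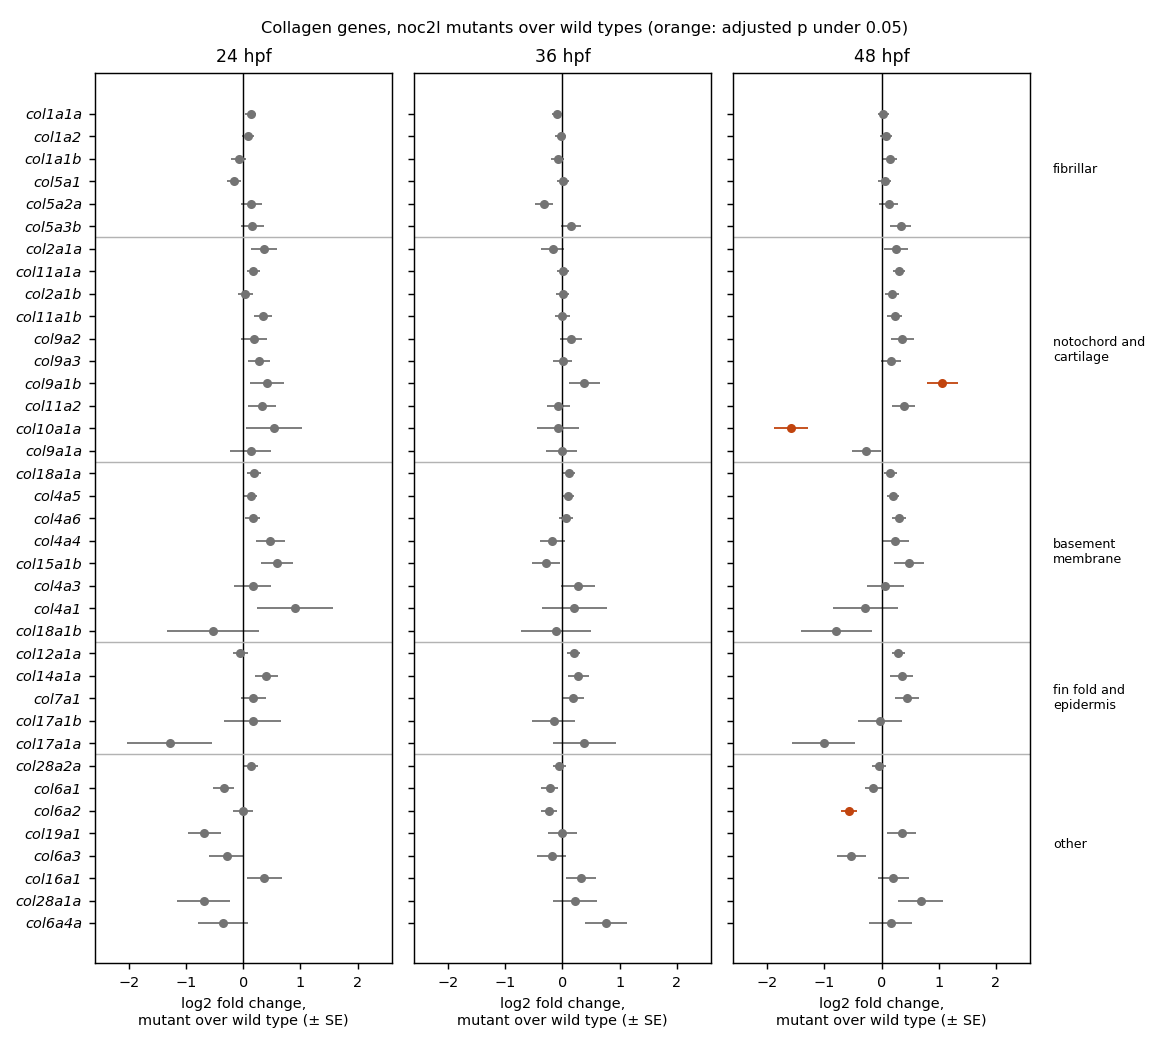
Log2 difference of mutants over wild types for each collagen gene (rows, by class) at 24, 36 and 48 hpf (panels), with bars for SE and orange for an adjusted p under 0.05. The 3 orange points stand at 48 hpf: col9a1b at 1.06, col10a1a at -1.58 and col6a2 at -0.58.

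The type X gene col10a1a read 6.26, 7.57, 10.7, 22.4, 26.4, 17.96 and 29.4 CPM in mutant embryos 1 to 7 at 48 hpf, against 89.6, 58.2, 37.5, 37.7, 57.3, 49.9, 61.6, 41.1 and 27.3 CPM in wild-type embryos 1 to 9. Of the 7 mutants 6 lay below every wild type, and the exception was mutant embryo 7, which lay above wild-type embryo 9, a shallow library, alone. The means were 17.2 ± 9.28 CPM in mutants (SD, n = 7) and 51.1 ± 18.4 CPM in wild types (n = 9), a log2 difference of -1.58 (SE 0.30, edgeR adjusted p = 0.0005). At 36 hpf the gene averaged 2.50 CPM in mutants and 2.58 CPM in wild types, with a log2 difference of -0.07 (SE 0.36, edgeR adjusted p = 0.995). The change of the genotype difference between ages was -1.50 (SE 0.47, edgeR adjusted p = 0.726) for 48 against 36 hpf and -2.12 (SE 0.56, adjusted p = 0.15) for 48 against 24 hpf. With the replicate number as a block the change for 48 against 24 hpf read -2.46 (adjusted p = 0.0201), although the numbers do not pair embryos.

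The type IX gene col9a1b read 91.5, 55.3, 42.3, 32.5, 27.3, 35.3 and 38.8 CPM in mutant embryos 1 to 7 at 48 hpf, against 28.8, 30.2, 18.6, 26.6, 21.5, 18.3, 8.12, 23.6 and 26.8 CPM in wild-type embryos 1 to 9. Again 6 of 7 mutants lay outside the wild-type range, above it, and mutant embryo 1 was far above the others. The means were 46.1 ± 21.9 CPM in mutants and 22.5 ± 6.86 CPM in wild types, a log2 difference of 1.06 (SE 0.27, edgeR adjusted p = 0.0226). The call rested on single embryos: the log2 difference was 0.82 without mutant embryo 1 (edgeR adjusted p = 0.135), 1.01 without mutant embryo 2 (adjusted p = 0.0556) and 0.94 without wild-type embryo 7 (adjusted p = 0.0533). At 24 hpf the difference was 0.41 (SE 0.30, adjusted p = 0.788) and at 36 hpf 0.39 (SE 0.27, adjusted p = 0.857), and the difference between ages did not pass (0.68, SE 0.38, for 48 against 36 hpf; 0.65, SE 0.40, for 48 against 24 hpf).

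Other type IX genes did not pass at 48 hpf. The duplicate col9a1a averaged 24.7 ± 10.5 CPM in mutants and 29.7 ± 9.10 CPM in wild types (log2 -0.27, SE 0.25, edgeR adjusted p = 0.818), with mutant embryos from 14.2 to 40.6 CPM and wild types from 10.4 to 42.5 CPM. For col9a2 the means were 50.4 ± 10.4 CPM in mutants and 39.2 ± 5.46 CPM in wild types (0.36, SE 0.20, adjusted p = 0.527), and for col9a3 45.4 ± 6.33 CPM in mutants and 40.6 ± 5.93 CPM in wild types (0.17, SE 0.17, adjusted p = 0.832). The count ratio of col9a1b to col9a2 averaged 0.89 ± 0.24 in mutants and 0.59 ± 0.21 in wild types at 48 hpf. That of col9a1a to col9a2 averaged 0.51 ± 0.22 in mutants and 0.78 ± 0.29 in wild types. The col9a1b ratio holds a called gene and was also higher in mutants at the earlier ages. It averaged 1.45 ± 0.40 in mutants and 1.11 ± 0.28 in wild types at 24 hpf. At 36 hpf it averaged 1.02 ± 0.29 in mutants and 0.84 ± 0.21 in wild types. How the deposited counting divided reads between duplicates such as col9a1a and col9a1b was not stated in the labels or files. By the RefSeq table of another assembly (GRCz12tu), in which all 37 members were found, col9a3 is the single member on the chromosome of noc2l.

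The type VI gene col6a2 read 35.5, 22.7, 41.5, 22.02, 34.1, 38.9 and 37.3 CPM in mutant embryos 1 to 7 at 48 hpf, against 49.0, 43.6, 49.8, 49.9, 60.5, 40.5, 42.2, 51.6 and 63.1 CPM in wild-type embryos 1 to 9. Of the mutants, embryo 3 alone reached into the wild-type range. The means were 33.1 ± 7.74 CPM in mutants and 50.0 ± 7.72 CPM in wild types, a log2 difference of -0.58 (SE 0.14, edgeR adjusted p = 0.00882). Without mutant embryo 4 it was -0.49 (adjusted p = 0.0551). Its partner col6a1 averaged 49.5 ± 9.65 CPM in mutants and 54.6 ± 8.80 CPM in wild types (-0.15, SE 0.15, edgeR adjusted p = 0.84), and col6a3 averaged 9.05 ± 2.45 CPM in mutants and 13.3 ± 2.92 CPM in wild types (-0.53, SE 0.26, adjusted p = 0.414). The count ratio of col6a2 to col6a1 averaged 0.68 ± 0.18 in mutants and 0.94 ± 0.24 in wild types at 48 hpf. At 36 hpf it was 0.76 ± 0.18 in mutants and 0.76 ± 0.23 in wild types. At 24 hpf the mutant mean was the higher one, at 1.04 ± 0.41 against 0.79 ± 0.12 in wild types.

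**Figure D5:**
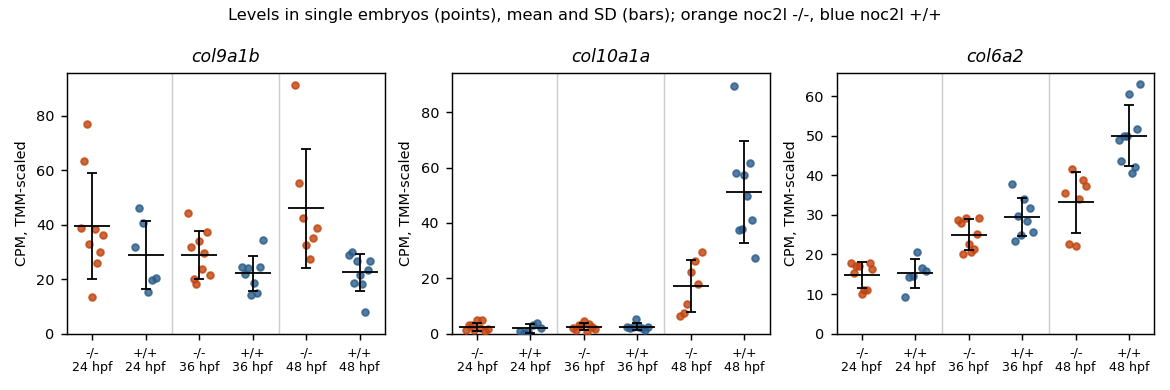
Levels of the 3 members called at 48 hpf (vertical axes, CPM with TMM scaling, from 0) in single embryos of the 6 groups (horizontal axes, mutants left of wild types at each age), with mean and SD. At 48 hpf 6 of 7 mutants lie above all wild types for col9a1b and 6 of 7 below all for col10a1a and for col6a2. The genotypes overlap for each gene at 24 and 36 hpf, although for col6a2 4 mutants lie below all wild types at 36 hpf.

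By the interaction test no member was called for a change of its genotype difference between 36 and 48 hpf (0.0548% of all tested genes were) or between 24 and 48 hpf (0.0609% were). A member not called may still have changed. Unadjusted p fell under 0.05 for 2 members (4.0% of all tested genes) between 36 and 48 hpf and for 4 (7.21%) between 24 and 48 hpf, and DESeq2 and limma voom also called 0 in both. Over the whole table DESeq2 called 14 genes in the first and 43 in the second, and limma voom called 5 and 6. Among the 14 members that changed from 36 to 48 hpf in wild types, the mutant mean at 48 hpf lay between the wild-type means of 36 and 48 hpf for 10, nearer to that of 36 hpf for 7 of them and nearer to that of 48 hpf for col14a1a, col9a1a and col6a1. For the other 4, col9a2, col9a3, col11a2 and col28a2a, it lay beyond the 48 hpf wild-type mean. Of the 2384 genes called in that interval over the whole table, 72.4% had a mutant mean between both wild-type means (18.6% nearer to 36 hpf) and 24.3% had one beyond that of 48 hpf. Members and genes were chosen by the same wild types whose means set these limits, which by itself can place another group between them. How much of the counts comes from this choice was not tested.

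Transcript age was read beside these results. An age score was given to each embryo from the wild-type change between 24 and 48 hpf, collagen genes left out: the log2 CPM averaged over the 200 genes with the strongest rise, less the average over the 200 with the strongest fall. It averaged 1.03 ± 0.37 in mutants (SD, n = 7; 0.41 to 1.41) and 1.90 ± 0.26 in wild types (n = 9; 1.30 to 2.17) at 48 hpf, while at 36 hpf it was -0.99 ± 0.45 in mutants and -0.81 ± 0.40 in wild types, and at 24 hpf -2.89 ± 0.32 and -3.19 ± 0.34. Mutant embryos 1 and 2 had the lowest scores at 48 hpf (0.63 and 0.41), the lowest col10a1a and the highest col9a1b. For col6a2 the lowest mutant was embryo 4 (22.02 CPM, score 1.15), embryo 2 was next and embryo 1 held the median (35.5 CPM). These embryos were singled out after values were seen. With the score as a covariate none of the 37 members was called at 48 hpf by edgeR (5 at an unadjusted p under 0.05), where 2.68% of all tested genes were called and 14.1% had an unadjusted p under 0.05: col10a1a read -1.26 (adjusted p = 0.0668), col9a1b 0.41 (adjusted p = 0.638) and col6a2 -0.43 (adjusted p = 0.182). The score differs between the genotypes at 48 hpf, so its part and that of genotype cannot be told apart in this fit. Wild types of 24 and 48 hpf also chose the score's genes, which by itself can set their scores farther apart than those of mutants. How much of the score difference comes from this choice was not tested.

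Markers of the tissues that make these collagens were read beside them. As background for these marker lists, edgeR called 0.122% of all tested genes between genotypes at 24 hpf and 0.706% at 36 hpf. At 48 hpf it called 1.49% higher and 0.712% lower in mutants. Of the 14 tested cartilage markers of 20 listed, 1 was lower in mutants at 48 hpf: matn1, encoding the cartilage matrix protein matrilin 1. It read 0 to 1.13 CPM in mutants (median 0.53) against 0 to 10.2 CPM in wild types (median 4.99), with a log2 difference of -3.22 (SE 0.71, edgeR adjusted p = 0.00304). The summed cartilage markers ran from 619 to 723 CPM in mutants and 569 to 770 CPM in wild types at 48 hpf, and the groups overlapped likewise at 36 hpf (383 to 631 CPM in mutants, 483 to 602 CPM in wild types) and 24 hpf (317 to 616 CPM in mutants, 455 to 598 CPM in wild types). At 48 hpf matn1 reached at most 10.2 CPM, so most of the sum at that age came from other listed genes. How far those genes are particular to cartilage cells was not tested. Untested for low counts were sox9a, acana, acanb and ucmaa, with 29, 169, 17 and 67 counts over all 48 libraries.

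None of the 10 tested bone markers of 13 listed was called at any age by edgeR. Their sum ran from 60.6 to 73.4 CPM in mutants and 63.2 to 82.6 CPM in wild types at 48 hpf, 41.7 to 66.8 CPM in mutants and 47.9 to 64.4 CPM in wild types at 36 hpf, with 24 hpf values of 72.8 to 104 CPM in mutants and 64.3 to 98.1 CPM in wild types. Their regulators runx2a and runx2b held 10 and 2 counts in all, and sp7, an osteoblast factor, averaged 4.76 ± 3.41 CPM in mutants and 4.87 ± 2.11 CPM in wild types at 48 hpf. The bone cell gene ifitm5 averaged 8.46 ± 4.21 CPM in mutants and 15.6 ± 4.36 CPM in wild types at 48 hpf (log2 -0.89, SE 0.37, edgeR adjusted p = 0.291), and entpd5a, needed for mineralisation, 1.11 ± 0.92 CPM in mutants and 3.12 ± 2.63 CPM in wild types (-1.46, SE 0.72, adjusted p = 0.425). Both genes were named after their values were seen, and the directions of the other tested bone markers are not all given here. They therefore do not stand for the list. The part of bone markers in the col10a1a difference was not tested, nor was the part of their sum that came from bone cells.

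No tested marker of notochord (13 genes), fin fold (15), epidermis (19), sclerotome and fibroblasts (15) or endothelium (14) was called between genotypes at any age by edgeR. At 48 hpf summed notochord markers ran from 335 to 448 CPM in mutants against 288 to 373 CPM in wild types. Summed sclerotome and fibroblast markers ran from 392 to 520 CPM in mutants against 403 to 547 CPM in wild types. Of 16 muscle markers tested, tcap was higher (4.31, SE 0.41, edgeR adjusted p = 7.66e-10) and tnnt3a lower (-0.67, SE 0.19, adjusted p = 0.0423) in mutants at 48 hpf, and acta1a was lower at 36 hpf (-0.90, SE 0.18, adjusted p = 0.00246). The summed muscle markers averaged 39899 ± 4453 CPM in mutants and 47381 ± 4503 CPM in wild types at 48 hpf, with overlapping ranges and 15 of the 16 log2 differences negative. They averaged 26044 ± 4429 CPM in mutants and 30920 ± 4801 CPM in wild types at 36 hpf. Type VI lies around muscle cells among others, and the part of muscle in the col6a2 difference was not tested.

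Genes that make, move and remodel collagen were examined by role, from lists chosen with earlier results of these data known. The background for calls in these lists was 0.122% of all tested genes at 24 hpf and 0.706% at 36 hpf. At 48 hpf it was 1.49% called higher and 0.712% called lower in mutants. Of the enzymes that modify the chains, 13 were tested and none was called between genotypes at any age by edgeR. Their median log2 difference at 48 hpf was -0.21, beside -0.02 over all tested genes. The member with the most counts, ppib, a prolyl isomerase, averaged 396 ± 69.4 CPM in mutants and 473 ± 80.6 CPM in wild types at 48 hpf (-0.26, SE 0.11, edgeR adjusted p = 0.33). Of 20 folding and export genes 1 was called, at 48 hpf: serpinh1b, encoding the collagen chaperone Hsp47. It read 119 to 244 CPM in mutants (median 213) against 98.6 to 159 CPM in wild types (median 136), overlapping ranges, with a log2 difference of 0.61 (SE 0.13, edgeR adjusted p = 0.0024). At 36 hpf it averaged 200 ± 29.5 CPM in mutants and 179 ± 17.1 CPM in wild types (0.17, SE 0.13, adjusted p = 0.889).

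Of 15 collagen-degrading enzymes and their inhibitors 1 was higher in mutants at 36 hpf and at 48 hpf, mmp2, encoding gelatinase A. At 36 hpf mmp2 read 70.1 to 150 CPM in mutants (median 112) against 50.9 to 71.8 CPM in wild types (median 64.5), and at 48 hpf 111 to 168 CPM in mutants (median 135) against 75.5 to 101 CPM in wild types (median 83.5). The groups overlapped at 36 hpf but not at 48 hpf, where 0.937% of all tested genes did not overlap. The log2 differences were 0.87 (SE 0.13, edgeR adjusted p = 1.69e-05) and 0.66 (SE 0.14, adjusted p = 0.00136), and at 24 hpf 0.46 (SE 0.15, adjusted p = 0.328). None of 17 processing and crosslinking genes, 7 collagen receptors or 23 basement membrane partners was called at any age by edgeR. Among these tgm2a, a transglutaminase, differed by -0.03 (SE 0.23), ddr1, a collagen receptor kinase, by -0.38 (SE 0.16) and sparc, a collagen-binding glycoprotein, by -0.17 (SE 0.09) at 48 hpf.

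Of 28 fibril partners 1 was called, ecm2, a matrix protein gene, at 24 hpf (0.122% of all tested genes). It read 0.50 to 3.17 CPM in mutants (median 1.61) against 0 to 1.09 CPM in wild types (median 0), with an edgeR adjusted p of 0.0294. At 36 hpf it averaged 1.92 ± 1.53 CPM in mutants and 1.66 ± 1.24 CPM in wild types. Levels this low rest on a few counts per library. Over the age series in wild types, 10 of the 28 fibril partners rose and 3 fell from 24 to 48 hpf, with a median of 0.47, where 14.0% of all tested genes rose and 13.5% fell. Of the 23 basement membrane partners, among them laminins and nidogens, 1 rose and 5 fell, with a median of -0.37.

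Embryos of 1 group differed least for the strongly counted genes. The median over groups of the coefficient of variation was 11.7% for col1a2, 12.4% for col1a1a and 12.7% for col1a1b, with medians of 1158, 3271 and 1131 counts per library. It was 78.4% for col4a1 and 81.5% for col18a1b, with 9 and 6 counts. At similar depth col9a1b had 36.8% at a median of 152 counts, beside 21.5% for col9a2 at 184 counts, and col2a1a had 29.5% at 590 counts, beside 16.1% for col2a1b at 464 counts.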

How the data were processed

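RNA of 48 single embryos was made into 3′-end libraries (Lasy-Seq), per the labels' protocols. The authors deposited unnormalised expected counts for 31658 gene symbols, and their tools, per the submitters' processing notes, were fastp 0.21.0, BWA 0.7.17-r1188 and Salmon with genome build GRCz11. The annotation, the strand setting and the division of reads between duplicate genes were stated in neither labels nor notes. The file of sample descriptions was left out.

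Expected counts were rounded (2 values were not whole). Genes passing filterByExpr (minimum count 10) numbered 16431 and held 99.8% of counts, and all 37 members passed. TMM scaling and robust quasi-likelihood fits ran in edgeR 4.0.16 (R 4.3.3) on all 48 libraries, each group having its own mean (common biological coefficient of variation 31.1%). Adjusted p-values are Benjamini-Hochberg values over all tested genes, at 0.05, and SE was derived from the F statistic. Log2 differences are mutants over wild types or later over earlier age. DESeq2 1.42.0 and limma 3.58.1 voom were alternatives, as were other scalings, filters, sample sets, a replicate block, an age score covariate and a higher member limit (5 CPM). The procedure was tested on simulated data.

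Replicate numbers are shared between groups in the labels but do not pair embryos: correlations of same-numbered embryos ran from -0.05 to 0.07. No 2 libraries of a group were alike to within sampling noise (chi-square over degrees of freedom at least 5.26). Embryos are of 1 family, and the labels give no batch. Precision is limited by counts per library, and 3 libraries held under 2000000. Members, classes and gene lists were chosen with earlier results of these data known. Named are the 3 members of highest mean CPM per class, members called between genotypes, the 4 largest called rises and falls with age in wild types, the genes next to the member limit, and of each list the called members or else the one with the most counts. Other genes were named after their values were seen.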

Additional observations from a re-analysis of the deposited data

Results flagged for a closer look

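For 21 named genes and 6 collagen sums, 162 groups of values were examined for an embryo far from the rest of its group, and 7 were found; chance gives about 1 in 20 groups. Type XVII genes shared 1 embryo: mutant embryo 3 at 24 hpf read 1.21 CPM for col17a1a (next 0.445 CPM) and 5.83 CPM for col17a1b (next 2.42 CPM). Wild-type embryo 4 at 36 hpf was lowest for col1a2, at 154 CPM (next 208 CPM), and highest for col10a1a, at 5.46 CPM (next 2.52 CPM). For col18a1a the shallow wild-type embryo 9 at 48 hpf read 112 CPM (next 91.0 CPM). For col4a5 mutant embryo 7 at 24 hpf read 131 CPM (next 113 CPM). For col4a3 mutant embryo 2 at 36 hpf was lowest, at 2.47 CPM (next 5.59 CPM). No cause of these values was tested.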

How the results depend on the processing

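The number of members called was within 1.5 times that reported, under all alternatives run, for every comparison except the following. At 48 hpf mutants over wild types had 0 members with the age score as a covariate, against 3 otherwise and 4 with the groups compared alone (col11a1a added, at 0.31, edgeR adjusted p = 0.0482); the cause was not tested. The genotype by age comparison of 48 against 24 hpf had 1 member with the replicate block, col10a1a, against 0 otherwise. From 36 to 48 hpf in wild types the count ran from 8 to 16 over the fits that each left out 1 library. Leaving out single libraries gave 2 or 3 members at 48 hpf. The call of col10a1a was kept in each of the 48 such fits, and those of col9a1b and col6a2 were lost in 3 and 1. The replicate block changed no other call between genotypes, and same-numbered embryos correlated best with each other in 1 of 6 pairs at 24 hpf, 2 of 8 at 36 hpf and 1 of 7 at 48 hpf. For the 21 named members between genotypes at each age, and for the largest age changes, 767 alternative values kept their side of the threshold. For fits without 1 library these were the lowest and highest value. Values past the threshold also kept direction, while direction was not compared for values that passed in neither fit. Calls were lost in 5 (the 3 genes with the age score, and col9a1b and col6a2 without 1 library) and gained in 1 (col11a1a); none turned direction past the threshold. The age score was not used in age comparisons, since wild-type ages define it. Members with under 10 counts per library (col4a1, col18a1b, col17a1a) could show only large changes.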
